A study of Mus musculus with 2 samples.

Results

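CtBP2 occupancy was examined at Cdh1, Cdkn1a, Cdkn2a and Bax, 4 genes that are textbook targets of repression by CtBP proteins. Each gene was taken with its surroundings as a fixed window on mouse build mm9, and the 4 windows covered 260 kb of the 2560 Mb analysed. The windows ran from 109110001 to 109210000 of chromosome 8 for Cdh1, from 29200001 to 29260000 of chromosome 17 for Cdkn1a, from 88900001 to 88960000 of chromosome 4 for Cdkn2a and from 52700001 to 52740000 of chromosome 7 for Bax. Their limits were laid around the genes by position, with no read count in the rule. Together they held 1300 steps of 200 bp, of which 828 carried at least 1 read in either library, out of 6708916 such steps in the genome.

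Reads came from 1 chromatin immunoprecipitation (ChIP) library, precipitated with an Active Motif antibody to CtBP2, and from 1 library of input chromatin that was sheared but not precipitated. Both came from MIN6 cells in regular culture. MIN6 is a mouse insulinoma line, derived from a mouse that expressed SV40 large T antigen under the insulin promoter, and T antigen binds and disables the p53 and Rb proteins that control several of the genes described here. One line stands for pancreatic beta cells, and ChIP reads carry no expression values, so its cell type could not be checked from marker genes. The ChIP library held 34890624 aligned reads and the input library 20896067. After 1 read per 5 prime end and strand was kept, 8474671 ChIP reads and 12471942 input reads remained, at 4.12 and 1.67 deposited reads per position. Neither group had a second library, so nothing here has a replicate check: every interval below covers counting error only, and every test compares the reads of these libraries. A control IgG library was not analysed here.

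CtBP2 is a co-repressor that senses NADH and does not bind DNA on its own. It is brought to genes by DNA-binding proteins with a short PXDLS-like motif, among them the zinc finger repressors of the ZEB family, and it carries histone deacetylases and the demethylase LSD1 with it. In mouse fibroblasts without CtBP proteins, genes of epithelial adhesion, of cell cycle arrest and of cell death are expressed at higher levels. The 4 genes here stand for those roles. Cdh1 encodes E-cadherin, the adhesion molecule of epithelial cells and of islets. Cdkn1a encodes a cyclin-dependent kinase inhibitor that p53 induces, Cdkn2a encodes the Ink4a inhibitor and, from another promoter and reading frame, the p53 activator Arf, and Bax encodes a protein that opens the outer mitochondrial membrane in apoptosis.

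The RefSeq table of GRCm38.p6 held 5 promoter sequences for 3 of the genes, Cdkn1a, Cdkn2a and Bax, each from 250 bases before to 50 bases after a start, and they are shown because the ZEB and SNAIL repressors that bring CtBP proteins to Cdh1 bind E-boxes, and because base composition can be read from them. Capitals mark CG pairs and the E-box CAGGTG, which was searched on both strands and overlaps no CG pair. Starts are numbered in the direction of transcription, and all sequences run 5 prime to 3 prime on the strand of the gene, plus for Cdkn1a and minus for Cdkn2a and Bax.
Cdkn1a start 1: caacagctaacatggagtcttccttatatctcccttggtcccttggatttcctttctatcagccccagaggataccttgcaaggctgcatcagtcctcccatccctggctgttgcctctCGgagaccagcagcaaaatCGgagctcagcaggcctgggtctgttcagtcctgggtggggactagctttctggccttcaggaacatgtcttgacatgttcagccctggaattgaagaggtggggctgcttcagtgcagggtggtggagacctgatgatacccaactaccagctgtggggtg
Cdkn1a start 2: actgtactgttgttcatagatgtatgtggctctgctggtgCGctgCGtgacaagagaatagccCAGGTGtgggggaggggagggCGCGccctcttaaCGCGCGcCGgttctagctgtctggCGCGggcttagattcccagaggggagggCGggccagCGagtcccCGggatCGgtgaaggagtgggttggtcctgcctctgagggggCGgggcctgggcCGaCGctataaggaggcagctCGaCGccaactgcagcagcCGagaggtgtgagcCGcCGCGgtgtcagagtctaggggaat
Cdkn2a start 1: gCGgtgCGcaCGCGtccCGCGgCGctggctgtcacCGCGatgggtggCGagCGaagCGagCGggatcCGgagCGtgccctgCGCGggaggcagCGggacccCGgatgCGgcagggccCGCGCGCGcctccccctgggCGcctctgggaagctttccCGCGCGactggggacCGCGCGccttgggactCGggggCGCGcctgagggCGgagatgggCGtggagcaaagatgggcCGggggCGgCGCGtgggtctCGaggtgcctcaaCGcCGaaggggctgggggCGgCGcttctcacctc
Cdkn2a start 2: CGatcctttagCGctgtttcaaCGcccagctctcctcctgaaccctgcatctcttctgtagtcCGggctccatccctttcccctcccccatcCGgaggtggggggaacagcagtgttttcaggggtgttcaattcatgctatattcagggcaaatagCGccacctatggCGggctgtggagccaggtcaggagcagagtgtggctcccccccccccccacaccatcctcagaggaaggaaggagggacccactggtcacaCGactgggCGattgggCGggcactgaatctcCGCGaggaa
Bax start 1: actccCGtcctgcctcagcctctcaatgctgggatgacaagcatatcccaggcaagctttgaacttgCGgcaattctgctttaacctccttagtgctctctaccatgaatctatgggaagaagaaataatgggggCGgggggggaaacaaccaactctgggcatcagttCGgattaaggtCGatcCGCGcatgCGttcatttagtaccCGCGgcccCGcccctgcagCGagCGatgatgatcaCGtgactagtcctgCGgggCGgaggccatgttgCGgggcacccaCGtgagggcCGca
Cdkn2a start 1 was the richest in CG pairs with 45, more than 98.1% of the 32851 promoters of the table. Cdkn1a start 2 held 23 pairs, Bax 19 and Cdkn2a start 2 12, and these 3 were also above the median of 7, whereas Cdkn1a start 1 held 2. CAGGTG occurred in 1 of the 5, Cdkn1a start 2, with its first base 187 bases before the start, and in 20.2% of all promoters in the table. The RefSeq build differs from mm9, no positions were converted, and so no ChIP region below is assigned to one of these starts.

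CtBP2 ChIP reads were concentrated in a few short, tall regions in every window. Of the 828 tested steps, 31 (3.74%) were called, against 1.00% of steps over the genome. A step was called where ChIP held at least 3 times the expected count with an adjusted p of at most 0.01 (Poisson test, Benjamini-Hochberg over all tested steps), with the expected count set by input, scaled and averaged over 1, 5 or 10 kb, or by the mean over the genome, whichever was highest. The called steps formed 13 regions after steps within 200 bp were joined: 2 at Cdh1, 4 at Cdkn1a, 6 at Cdkn2a and 1 at Bax. Regions are numbered below by position within each window. At least 1 called step was also found in 53.5% of genome tiles of 100 kb, the length of the Cdh1 window, in 39.2% of tiles of 60 kb, the length of the Cdkn1a and Cdkn2a windows, and in 29.5% of tiles of 40 kb, that of Bax. A called region in a window of this length was therefore common in the genome, and the presence of one in each gene window says little by itself.

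**Figure D1:**
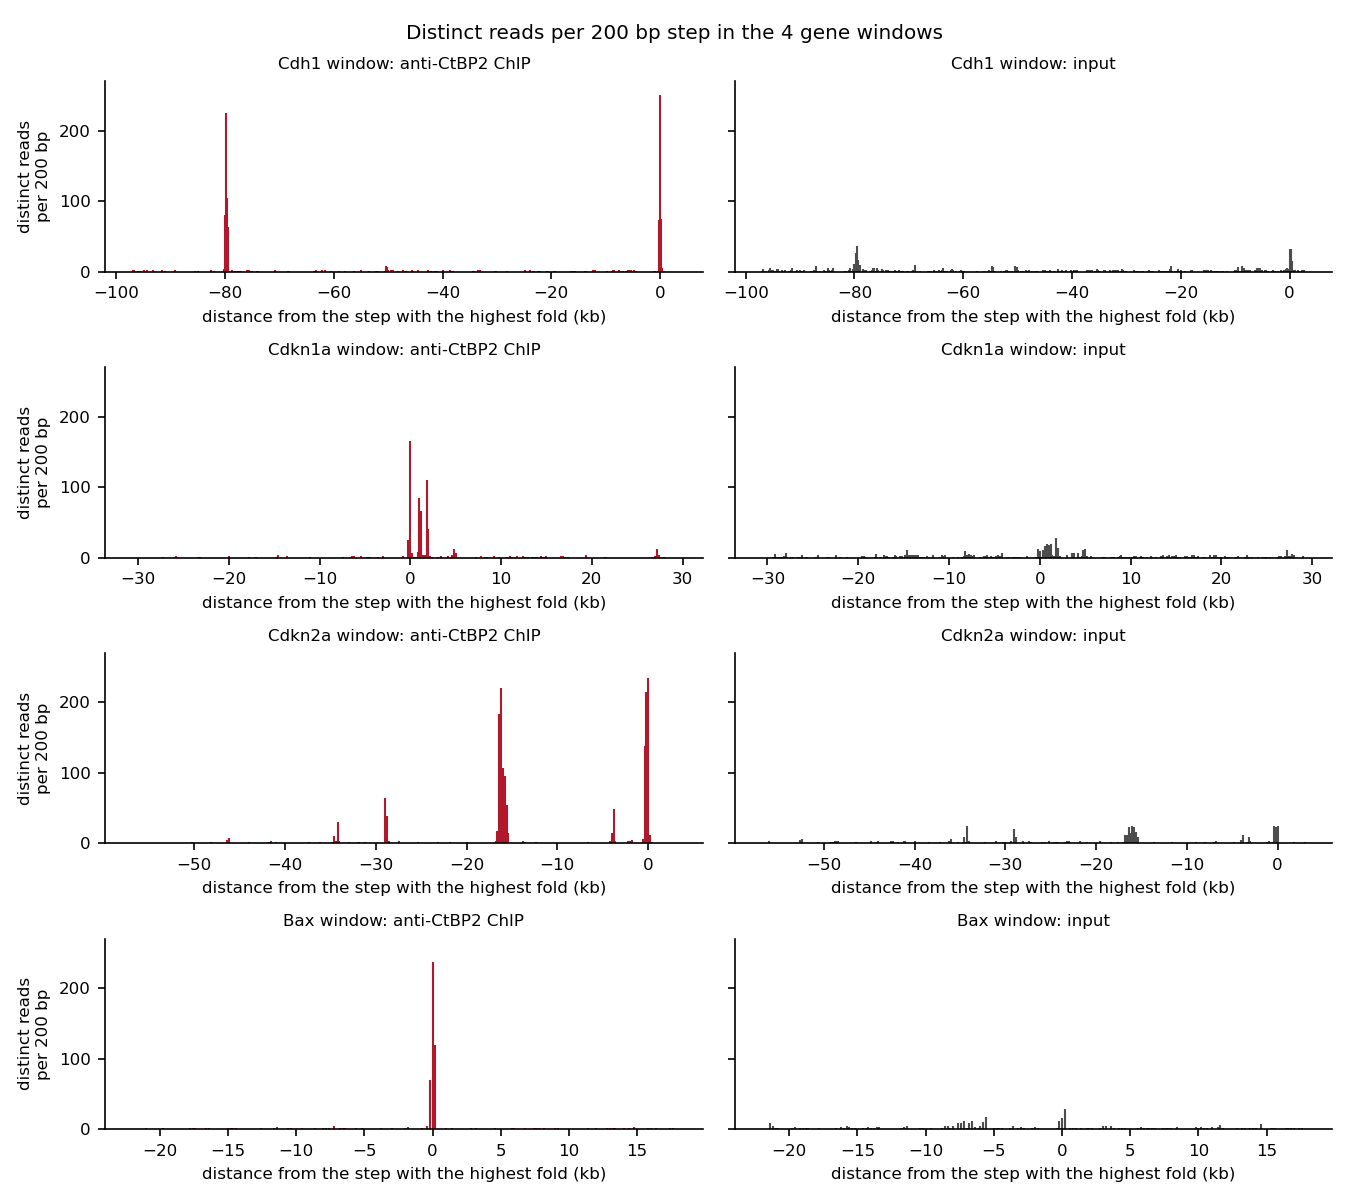
Distinct reads per 200 bp step (vertical axis) against the distance from the step with the highest fold in kb (horizontal axis), with ChIP on the left and input on the right for each gene window. ChIP reads stood in 1 spike at Bax, 2 far apart at Cdh1, a cluster at Cdkn1a and several at Cdkn2a, up to 251 reads per step, and input reached at most 36 per step in these windows.

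The share of reads inside the called regions differed sharply between the libraries. At Cdh1 the regions covered 1400 bp and held 83.1% of the ChIP reads of the window against 21.8% of its input reads. The shares were 79.2% of ChIP and 21.1% of input at Cdkn1a, and 83.0% and 16.1% at Bax. Cdkn2a stood highest, with 89.0% of ChIP and 45.0% of input reads in 2800 bp of regions. The regions were called in the same ChIP reads, so a high ChIP share is partly built in.

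The Cdh1 window held 2 tall regions of like size, 79760 bp apart from centre to centre. Region 1 lay at 109127001 to 109127800 with 475 ChIP and 91 input reads, and region 2 at 109206801 to 109207400 with 399 ChIP and 68 input reads. The summit step of region 1 held 226 ChIP reads against 27 input reads, 17.5 times the expected count (95% Poisson interval 15.3 to 19.9). That of region 2 held 251 ChIP reads against 32 input reads, a fold of 20.8 (18.3 to 23.5). Intervals of folds, here and below, cover the ChIP count alone and take the expected count as known. Set against scaled input in the same step, the ChIP counts were 12.3 times (8.24 to 19.1) and 11.5 times (7.97 to 17.2) as high, so the regions could not be ordered. Input scaling was the ratio of total distinct reads, 0.679.

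Cdh1 region 1 was lopsided, with a long shoulder toward higher positions. Its 4 steps held 81, 226, 105 and 63 ChIP reads in order of position, against 11, 27, 36 and 17 input reads, so input was highest 1 step beyond the ChIP summit. Region 2 held 73, 251 and 75 ChIP reads against 4, 32 and 32 input reads, and its first step had the highest ChIP over scaled input of these 7 steps at 26.9. In the next step toward higher positions, 5 ChIP reads stood against 16 input reads, a ratio of 0.460 (0.132 to 1.31), although input was still dense. ChIP thus ended within 1 step of the region while input went on. Between the regions lay 79000 bp with 142 ChIP reads against 435 input reads, or 1.8 ChIP and 5.51 input reads per kb, a ChIP over scaled input of 0.480 (0.395 to 0.582). The densest uncalled step there held 8 ChIP and 8 input reads at 109156601, a fold of 3.46 with an adjusted p of 0.23. In RefSeq the gene after Cdh1 is Tango6 and the gene before it Cdh3, another cadherin, and which gene lies under either region was not determined. With the input of the step itself in the expected count the highest Cdh1 fold was 12.3. Without a shift of reads toward the fragment centre it was 13.6. Both came from region 1, whereas the main value of 20.8 came from region 2.

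In 200 bp steps with shifted reads Cdkn1a carried the step with the highest fold of the 4 windows, in a cluster of 3 separate regions within 2400 bp. Region 1, at 29230401 to 29230800, held 191 ChIP against 22 input reads, and its summit step 166 against 10. That step stood 34.9 times above the expected count (29.8 to 40.6) and 24.4 times above its own scaled input (13.0 to 51.9). Region 2, at 29231601 to 29232000, held 151 ChIP against 37 input reads with a summit fold of 8.23 (6.57 to 10.2). Region 3, at 29232401 to 29232800, held 150 ChIP against 42 input reads with a summit fold of 16.2 (13.3 to 19.5). Regions 2 and 3 had like ChIP totals. The lower fold of region 2 came with 85 ChIP reads at its summit against 110 in region 3 and with an expected count of 10.3 against 6.79.

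Regions 1 and 2 of Cdkn1a were parted by a stretch where input was dense and ChIP was at the level of sequence outside regions relative to input. From 29231001 to 29231600, the 3 steps held 1, 1 and 8 ChIP reads against 11, 16 and 19 input reads. These steps were picked for dense input with ChIP below scaled input, and the regions for high ChIP, so the contrast was built in. ChIP over scaled input there was 0.320 (0.144 to 0.643), against 12.8 (8.2 to 20.9) in region 1 on one side and 6.01 (4.17 to 8.85) in region 2 on the other. Its interval holds the 0.463 of the window outside regions, and on the scale of background bins the ratio was 0.997 (0.449 to 2). Over the whole gap of 800 bp between regions 1 and 2, 16 ChIP and 47 input reads gave 0.501 (0.265 to 0.9). Dense input in this locus was thus met both with and without enriched ChIP. Regions 2 and 3 were closer, with 400 bp, 6 ChIP and 6 input reads between them.

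Farther along the Cdkn1a window lay a weak called region and an uncalled step with the same counts. The called region 4 was 1 step at 29257801 to 29258000 with 12 ChIP against 11 input reads, a fold of 5.19 (2.68 to 9.07) with an adjusted p of 0.00061 by the Poisson test. Against its own scaled input the ratio was 1.61, with an interval of 0.649 to 4.02 that holds 1, and with the input of the step in the expected count 6 rather than 7 steps of the window were called. A step at 29235401, also with 12 ChIP and 11 input reads, was just outside the rule at a fold of 3.15 and an adjusted p of 0.055. The same counts thus fell on both sides of the rule because local input differed. The highest Cdkn1a fold was 20.4 without the read shift, below Bax, and 14.1 in steps of 500 bp, below Cdkn2a and Bax.

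**Figure D2:**
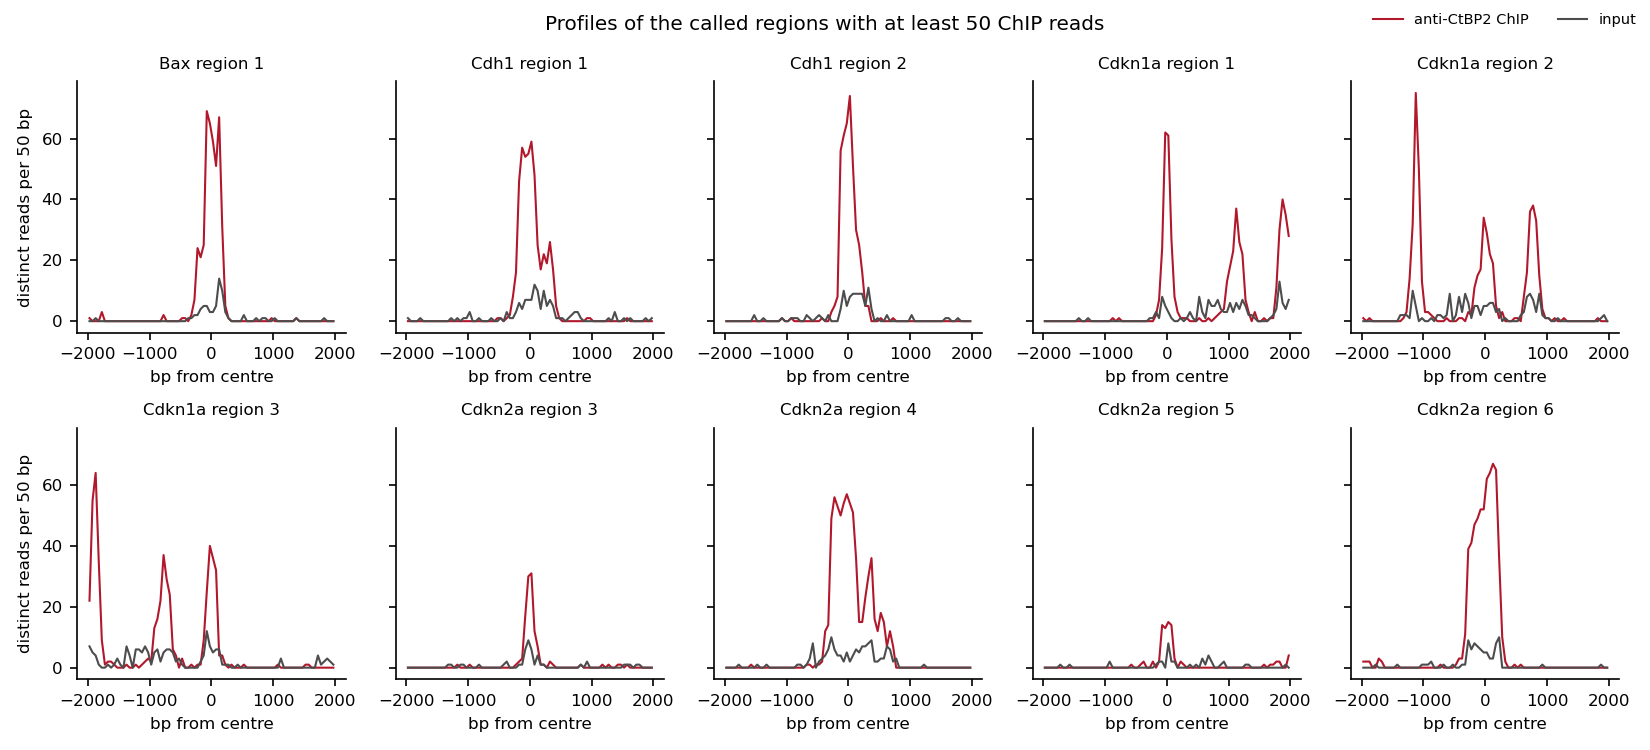
Distinct reads per 50 bp (vertical axis) against bp from the centre of each called region with at least 50 ChIP reads (horizontal axis), with ChIP in red and input in grey. The 3 close regions of Cdkn1a appear as separate peaks in the panel of region 2. Where input is raised between regions 1 and 2, ChIP falls below it.

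Cdkn2a was the most densely occupied of the 4 windows. It held 14 called steps (7.45% of those tested) against 7 at Cdkn1a (3.59%), 7 at Cdh1 (2.24%) and 3 at Bax (2.26%), where the genome had 1.00%. Over the whole window 1633 ChIP reads stood against 540 input reads, a ChIP over scaled input of 4.45 (4.04 to 4.91). The value was 2.13 (1.86 to 2.45) at Bax, 2.12 (1.93 to 2.33) at Cdh1 and 1.76 (1.57 to 1.98) at Cdkn1a. The interval of Cdkn2a overlapped none of the others. Of 42768 genome tiles of 60 kb, 99.5% had a lower ratio than Cdkn2a and 86.6% a lower one than Cdkn1a, around a median of 0.472. For Cdh1, 89.6% of 100 kb tiles were lower, and for Bax 90.5% of 40 kb tiles.

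A pair of regions carried most of the Cdkn2a ChIP reads. Region 4, at 88940401 to 88941400, was the widest of the 13 at 1000 bp and held 663 ChIP against 101 input reads. Its 5 steps held 184, 221, 107, 96 and 55 ChIP reads against 23, 14, 25, 23 and 16 input reads. Region 6, at 88956401 to 88957000, held 586 ChIP against 71 input reads, with 138, 214 and 234 ChIP reads in its 3 steps against 24, 23 and 24 input reads. ChIP thus rose across region 6 while input was level. Its summit fold of 24.3 (21.2 to 27.6) was above the 16.8 (14.6 to 19.1) of region 4, by intervals that leave out the counting error of input. Against scaled input in the same step the order was the other way, 14.3 (9.41 to 22.8) in region 6 and 23.2 (13.6 to 43.2) in region 4, with overlapping intervals.

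The other Cdkn2a regions were smaller. Region 3, at 88927801 to 88928200, held 104 ChIP against 29 input reads with a summit fold of 14.5 (11.2 to 18.5). Region 5, at 88952801 to 88953200, held 63 ChIP against 17 input reads with a fold of 18.6 (13.7 to 24.6), and its expected count was low at 2.58. Both stood about as far above their own scaled input, at 4.78 (2.86 to 8.34) and 5.89 (3.08 to 12.2). Region 1, at 88910601 to 88910800, rested on 7 ChIP reads and 1 input read, a fold of 10.3 (4.14 to 21.2) with an adjusted p of 0.00077 by the Poisson test. Region 2, at 88922601 to 88922800, held 30 ChIP against 24 input reads, and its ratio to its own scaled input was 1.84 (1.04 to 3.29), so it lost its call with the input of the step in the expected count. It lay outside the limit of 5 regions per window set for naming and was described after its values were seen.

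The spacing of the regions in the Cdkn2a window was wide. Centres of regions 3 and 4 were 12759 bp apart, those of 4 and 5 12326 bp, and those of 5 and 6 3691 bp. The gap between regions 3 and 4 held 45 ChIP against 87 input reads over 12200 bp, a ChIP over scaled input of 0.761 (0.519 to 1.1). The gaps between 4 and 5 and between 5 and 6 stood at 1.21 (0.732 to 1.98) and 1.2 (0.651 to 2.19), with 2.81 and 6.88 ChIP reads per kb against 1.3 in the genome outside regions. In RefSeq, Cdkn2a and the next gene Cdkn2b, which encodes the related inhibitor Ink4b, are both transcribed toward lower positions, with Cdkn2b upstream of Cdkn2a and Mtap, an enzyme of methionine salvage, beyond its other end. Which region lies at which start was not determined here.

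Bax had a single called region, tall and isolated. It lay at 52721801 to 52722400 and held 425 ChIP against 57 input reads. Its 3 steps held 69, 237 and 119 ChIP reads against 12, 16 and 29 input reads, so that, as in Cdh1 region 1, input was densest in the step after the ChIP summit. The summit stood 29.6 times above the expected count (25.9 to 33.6) and 21.8 times above its own scaled input (13.1 to 38.8). Outside the region the window held 87 ChIP reads in 39.4 kb against 296 input reads, or 2.21 ChIP and 7.51 input reads per kb. In steps of 500 bp its summit fold was 19.4.

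The Bax window also held a stretch of dense input without enriched ChIP. From 52714801 to 52716600, a span of 1800 bp, 4 steps reached the high-input limit of 9.74 reads, and the stretch held 11 ChIP against 67 input reads. Those 4 steps were also picked for ChIP below scaled input, so a low ratio of the stretch was largely built in. ChIP over scaled input was 0.242 (0.115 to 0.461), an interval that holds the 0.433 of the window outside its region. The step with the most input there held 17 input reads and 2 ChIP reads. In RefSeq the genes before Bax are Ftl1, which encodes a ferritin chain, and Gys1, a glycogen synthase, and the gene after it is Dhdh.

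Most called steps were also steps of dense input, but not all steps of dense input were called. Of the 31 called steps 27 (87.1%) reached the high-input limit, against 68.6% of called steps and 1.19% of tested steps in the genome. In the 4 windows 41 steps reached the high-input limit, 10 times the genome mean, and 27 of them (65.9%) were called, against 57.9% of such steps in the genome, so the windows were near the background in this respect. In 12 of the 41 ChIP was below scaled input: 6 at Cdkn1a, 4 at Bax, 1 at Cdh1 and 1 at Cdkn2a. Below scaled input is the usual state outside regions, and on the scale of background bins, 0.218 ChIP reads per input read, 6 of these 12 were at or above input. All summit steps except that of Cdkn2a region 1 were high-input steps. If high-input steps were left out, as a strict filter would do, no step was called at Cdkn1a or Bax, 1 was called at Cdh1 and 3 at Cdkn2a. The part of raised input in the ChIP counts was not tested.

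Ordered by the highest fold in each window, Cdkn1a at 34.9 came before Bax at 29.6, Cdkn2a at 24.3 and Cdh1 at 20.8. The order was another one in steps of 500 bp, with Cdkn2a at 23.3, Bax at 19.4, Cdkn1a at 14.1 and Cdh1 at 13.9, and without the read shift, with Bax at 23.1, Cdkn1a and Cdkn2a at 20.4 each and Cdh1 at 13.6. Neighbours in the first order were close. The ratio of Cdkn1a to Bax was 1.18 (exact interval 0.962 to 1.45) and that of Cdkn2a to Cdh1 1.17 (0.974 to 1.4), and both intervals hold 1. The ratio of Bax to Cdkn2a was 1.22 (1.01 to 1.47). These intervals take the expected counts as known and leave out the counting error of input. Against scaled input in the same step, Bax stood at 21.8 (13.1 to 38.8) and Cdkn2a region 6 at 14.3 (9.41 to 22.8). Those intervals overlapped, so this pair could not be ordered either. Steps were picked for their height, and the order by read number was different, with Cdkn2a region 4 first at 663 ChIP reads, then Cdkn2a region 6 at 586, Cdh1 region 1 at 475, Bax at 425, Cdh1 region 2 at 399 and Cdkn1a region 1 at 191.

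**Figure D3:**
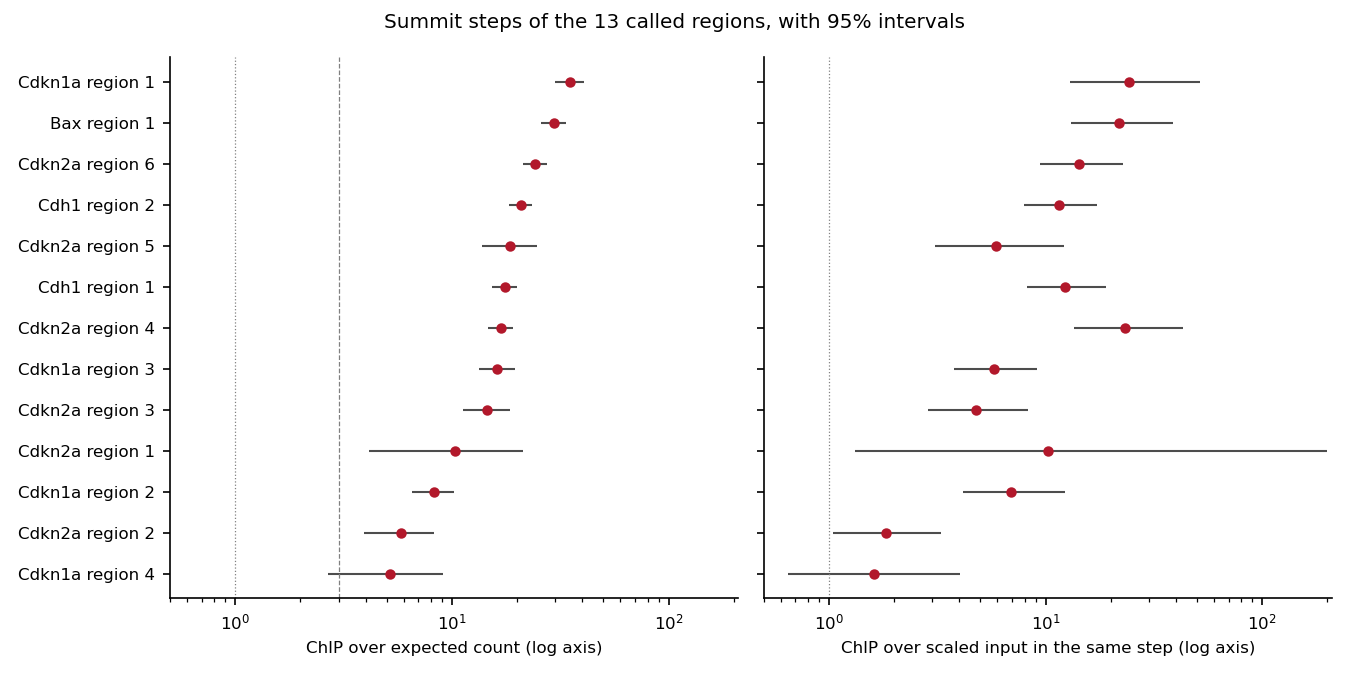
ChIP over the expected count (left, log axis) and over scaled input in the same step (right, log axis) for the summit step of each of the 13 called regions, with 95% intervals covering counting error and the 3-fold limit dashed. Intervals on the left cover the ChIP count alone. Cdkn1a region 1 is highest at 34.9 and 24.4. The interval drawn on the right for Cdkn2a region 1, with 1 input read, is cut short of its upper limit of 464.

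Set beside the 27443 called regions of the genome, the tallest region of each window was high but not extreme. The genome regions had a median summit fold of 9.37, with quartiles of 6.28 and 16.2. Cdkn1a region 1 exceeded 98.8% of them, Bax 97.1%, Cdkn2a region 6 92.5% and Cdh1 region 2 86.6%. By ChIP reads in the region Cdkn2a region 4 exceeded 93.8%, Cdkn2a region 6 91.3%, Cdh1 region 1 86.3%, Bax 83.6% and Cdkn1a region 1 68.6%. The smallest, Cdkn2a region 1, had more reads than 0.871% of regions and Cdkn1a region 4 more than 7.23%. Where a window held several regions, setting its tallest beside single regions made a high place partly built in. The highest fold of the window exceeded that of 99.2% of genome tiles of the same length at Cdkn1a. The share was 98.8% at Bax, 95.5% at Cdkn2a and 88.2% at Cdh1.

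**Figure D4:**
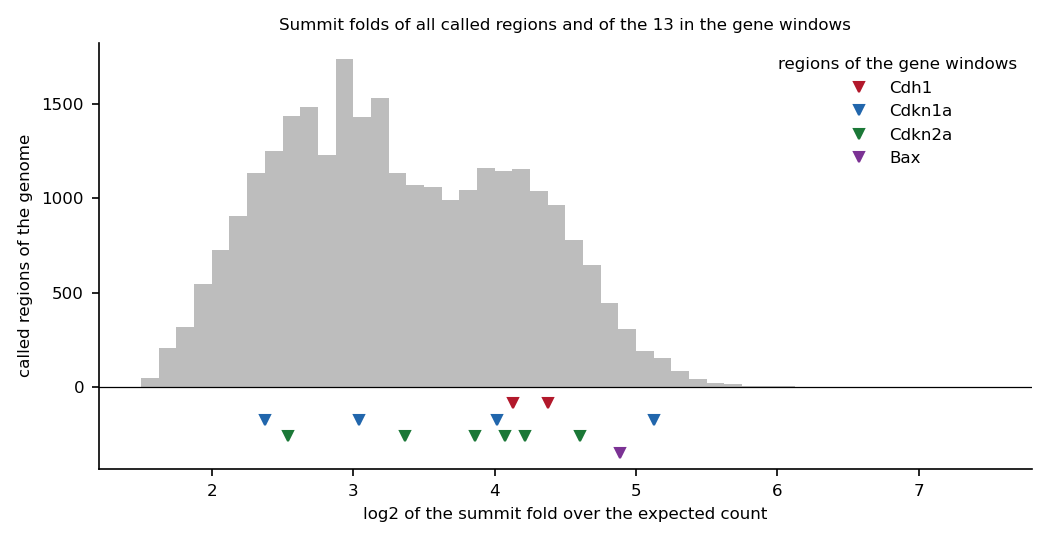
Number of called regions of the genome (vertical axis, grey bars) by log2 of the summit fold over the expected count (horizontal axis), with triangles below the bars for the 13 regions of the gene windows, coloured by gene. The tallest region of each gene lies to the right of the genome median, and the triangles of Cdkn1a and Cdkn2a also reach into the lower part.

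Strand offset and strand balance were alike in the strong regions of all 4 genes, though widths differed, from 400 bp in Cdkn1a region 1 to 1000 bp in Cdkn2a region 4. The median position of minus-strand 5 prime ends lay beyond that of plus-strand ones, by 229 bp at Bax and 234 bp in both Cdh1 regions. The offset was 254 bp in Cdkn1a region 1, and 206 bp and 247 bp in Cdkn2a regions 4 and 6. The fragment length over the genome was 220 bp. Regions were called on reads moved by 110 bp per strand, so an offset near the fragment length was partly built in. Strands were balanced, for example with 215 plus and 211 minus reads at Bax and 293 of each in Cdkn2a region 6. Cdkn2a region 1 differed, with an offset of 89 bp from 7 plus and 5 minus reads. Deposited reads per position were 2.80 in ChIP and 1.11 in input at Bax, 2.99 and 1.15 in Cdh1 region 2, and 1.33 and 1.00 in Cdkn2a region 1, so among these regions repeats were more common where ChIP was tall. All 13 regions were below the 4.12 reads per position of the whole ChIP library.

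Counting each position once also limits how high a step can rise. A step of 200 bp can hold at most 400 distinct reads, and the summit of Cdh1 region 2 filled 62.8% of them in ChIP and 8% in input. The summit of Bax filled 59.2% and 4%, that of Cdkn2a region 6 58.5% and 6%, and that of Cdkn1a region 1 41.5% and 2.5%. With all deposited reads the highest folds were 37.1 at Cdkn1a, 30.8 at Bax, 25.7 at Cdkn2a and 23.6 at Cdh1. This and the other settings of scaling, grid and local input kept the order of genes, and steps of 500 bp and counting without a shift did not, as given above.

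Outside the called regions, ChIP was sparser than scaled input at Cdh1, Cdkn1a and Bax, and less so at Cdkn2a. ChIP over scaled input was 0.892 (0.737 to 1.08) at Cdkn2a, 0.463 (0.377 to 0.564) at Cdkn1a, 0.458 (0.385 to 0.543) at Cdh1 and 0.433 (0.337 to 0.551) at Bax, and 0.428 over the genome outside regions. Cdkn2a was above Cdh1 by 1.95 times (1.5 to 2.52), above Cdkn1a by 1.93 times (1.46 to 2.55) and above Bax by 2.06 times (1.51 to 2.83), with adjusted p of 1.4e-06, 4e-06 and 4e-06 (Fisher's exact test on reads, two-sided, Benjamini-Hochberg over 6 pairs). The 3 pairs among the other genes had ratios of 1.01 to 1.07 and adjusted p of at least 0.92. Both this comparison and the next setting were added with the reads in view. With 1 kb beside each region also left out, Cdkn2a fell to 0.590 (0.45 to 0.767) and its ratio to the others ran from 1.27 (0.917 to 1.76) to 1.44 (0.993 to 2.1), with adjusted p of 0.29 and 0.16 (Fisher's exact test). The flanks of the Cdkn2a regions therefore carried much of the excess. Of tiles of 60 kb with at least 100 input reads, 99.7% had a lower ratio than Cdkn2a with the flanks kept and 94% without them. The interval of Cdkn2a without the flanks was still above the genome value of 0.397.

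**Figure D5:**
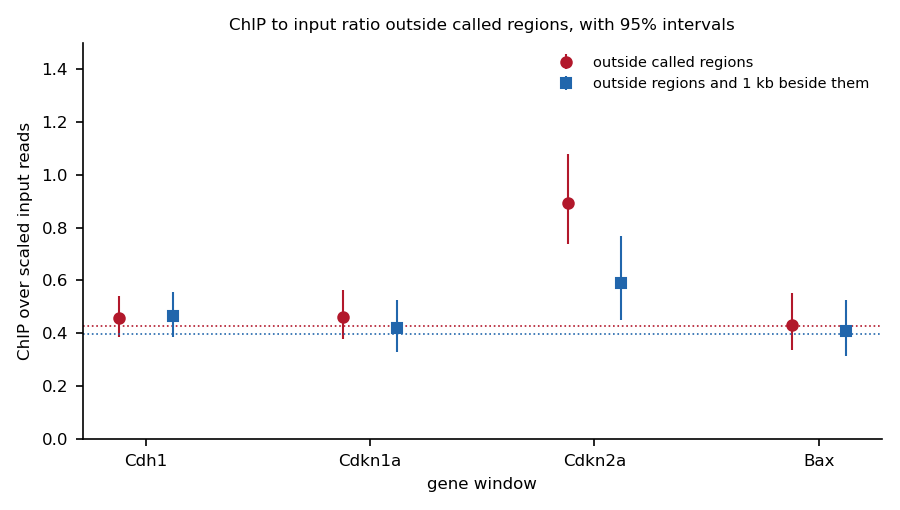
ChIP over scaled input reads (vertical axis) outside called regions in each gene window (horizontal axis), with circles for all sequence outside regions and squares with 1 kb beside each region also left out. Bars are 95% intervals covering counting error, and dotted lines give the genome values of 0.428 and 0.397. Cdkn2a stands above the other genes as a circle, at 0.892, and nearer to them as a square, at 0.590.

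Input depth in the windows was at or above that of the genome. Input in the windows was 2.01 times the median of genome tiles of the same length at Cdkn2a, 2.04 times at Bax, 1.99 times at Cdkn1a and 1.61 times at Cdh1, and 1.63 to 1.94 times the median of tiles of the same chromosome. Input stayed raised outside the called regions, at 5.19 reads per kb at Cdkn2a, 7.51 at Bax, 7.17 at Cdkn1a and 5.8 at Cdh1 against 4.47 in the genome outside regions. In 10 kb bins without a called step, input was 41 and 54 reads at Cdkn2a, 55 to 131 at Bax, 40 to 79 at Cdkn1a and 37 to 65 at Cdh1, against a genome median of 38. The highest of these, 131 at Bax, held the stretch of dense input described above and exceeded the 110 of the bin with the Bax region. Cdkn2a, a gene often deleted in cultured lines, was thus present at a depth near or above that of the genome, as read from input counts in 1 library.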

How the data were processed

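The authors deposited aligned reads of 1 ChIP and 1 input library, 1 line per read. The name column is 1 on every deposited line, so lines sum to raw read counts with no normalization. The deposited score is 0 throughout, and the other columns hold positions in bp. The submitters' processing notes name BWA, SAMtools 0.1.19, bedtools 2.17.0 and build mm9. Settings and filters are not given in the sources used here. The deposited lines spanned 33 to 38 bp, 36 bp being the most frequent.

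Reads on 21 nuclear chromosomes were reduced to 1 per 5 prime end and strand, moved by 110 bp toward the fragment centre (strand cross-correlation, which gave 220 bp for ChIP and 205 bp for input), then counted in 200 bp steps. The Poisson test, its adjustment and the thresholds are given with the first count. Ratio intervals are exact conditional intervals at 95%. The call was tried on simulated reads with planted sites, over a background of input averaged in 10 kb bins. That background lacked the narrow peaks of dense input where most called steps lay, so the trial says nothing about calls there. All 13 regions are described, and naming was limited to 5 regions per window in order of fold. The windows follow gene position, but the genes, windows and tests were chosen with earlier results of these data known. Scripts used Python 3.11.15, NumPy 2.4.6, SciPy 1.17.1 and matplotlib 3.10.9.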

Additional observations from a re-analysis of the deposited data

How the results depend on the processing

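No paired analysis was possible because the ChIP and input groups held 1 library each. Of 86 values recomputed under other settings, 67 kept their side of the call rule, stayed within 1.5 times the count or stayed in the counting interval. For the pairs outside regions, the same outcome of the test counted as kept. A highest fold counted as kept while some step was still called, also at another height or place. With high-input steps left out, that of Cdkn2a went from 24.3 to 10.3, at the 7 ChIP reads of region 1. Leaving out high-input steps changed the calls most: 19441 rather than 67179 steps were called in the genome, 1 rather than 7 at Cdh1, 0 rather than 7 at Cdkn1a, 3 rather than 14 at Cdkn2a and 0 rather than 3 at Bax. By its construction this removed the summits. Among steps with at least 5 ChIP reads, the highest remaining fold at Cdkn1a was 0.883, and at Bax no such step was left. Steps of 500 bp, fewer by construction, gave 34973 calls in the genome, 4 at Cdh1 and 3 at Cdkn1a. Scaling by background bins, 0.218 ChIP reads per input read, raised ChIP over scaled input of the windows to 6.60 at Cdh1, 5.48 at Cdkn1a, 13.9 at Cdkn2a and 6.65 at Bax, and the highest folds to 64.7, 109, 75.6 and 92.1. With all deposited reads the window ratios were 1.90 at Cdh1, 1.34 at Cdkn1a and 3.99 at Cdkn2a. With 1 kb beside regions left out, chosen after seeing the data, the excess of Cdkn2a outside regions was 1.44 times over Bax, 1.41 over Cdkn1a and 1.27 over Cdh1 and no longer passed the test (adjusted p 0.16, 0.16 and 0.29, Fisher's exact test). Depth limits the weak regions: Cdkn2a region 1 rests on 7 ChIP reads.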
